A study of Mus musculus with 6 samples.

Results

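Collagen chain genes are described here in all 6 arrays of a mouse study of colon crypts. The members are all genes whose annotated symbol is Col, a number, the letter a and a number. That rule found 42 genes among the 19505 genes with a symbol on the array, and each member had 1 probe set. They are 11 fibrillar chains, 9 chains of basement membranes and their attachment, and 22 others. All mice were C57BL/6J. RNA labelled as colon crypt came from 3 samples of control mice, titled PBS, and from 3 samples of mice given MBELN, exosome-like nanoparticles of mulberry bark, by oral gavage daily for 7 days. No age is stated. Whether every array stands for its own mouse is not stated, so a p-value here reflects only how far these samples spread, which may be technical.

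Collagen molecules are trimers of alpha chains wound around each other through long repeats that begin with glycine. Fibrillar chains pack into the fibres of connective tissue and are made mainly by fibroblasts, while type IV chains form the sheet-like network of basement membranes under epithelia and around vessels, muscle cells and nerves. Type VI chains form beaded filaments between fibres and cells, and fibril-associated chains decorate fibre surfaces. In the gut, crypt epithelium rests on a basement membrane above a collagen-bearing lamina propria. In heart, fibroblasts between the muscle cells produce type I and type III collagen, and brain tissue holds little fibrillar collagen outside its vessels and meninges.

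The arrays did not carry the markers of one tissue. Of gut epithelium, 10 genes had a median log2 value of 19.35 in PBS 1, 18.33 in PBS 2 and 19.28 in PBS 3. Their median was 7.26 in MBELN 1, 3.19 in MBELN 2 and 6.28 in MBELN 3. Heart muscle genes, 10 measured, had a median of 18.43 in MBELN 1 and 18.76 in MBELN 3, against 3.90 to 4.27 in the other 4 arrays. The median of 9 neuronal genes was 15.80 in MBELN 2 and between 3.98 and 4.78 elsewhere, and that of 7 glial genes was 7.64 in MBELN 2 and at most 3.93 elsewhere. Of the gut epithelial genes, Cdx2, an intestinal transcription factor, read 12.32 and 12.88 in PBS 1 and PBS 3 but 3.45 in PBS 2. The arrays labelled MBELN thus go against the label's tissue. The PBS arrays carried gut epithelial markers but not those alone, as the smooth muscle gene Actg2 read 16.65, 18.09 and 17.02 in PBS 1, 2 and 3. Treatment and tissue content cannot be told apart in any comparison below, and "MBELN" and "PBS" name the labels only.

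Several cell types can supply collagen, and their markers also differed between arrays. The median of 9 fibroblast genes was 10.72 in PBS 2, 10.37 in MBELN 1 and 9.30 in MBELN 3, against 6.76 in PBS 1, 6.22 in PBS 3 and 3.76 in MBELN 2. Thy1, a gene of this list, went against its median, at 17.64 in MBELN 2 and between 6.22 and 8.84 elsewhere. Endothelial genes, 9 measured, had medians of 12.22 and 11.96 in MBELN 1 and MBELN 3 and between 3.67 and 5.84 elsewhere. Smooth muscle and pericyte genes, 10 measured, had medians between 14.08 and 15.53 in PBS, 8.92 and 8.98 in MBELN 1 and MBELN 3, and 4.25 in MBELN 2. These medians hide a split within the list. In the limma fit without PBS 2 and MBELN 2, given below, 4 of the 10 were called higher in MBELN and 5 lower. Across all probe sets 15.1% and 15.4% were. The higher genes were Des, Pdgfrb, Rgs5 and Kcnj8, and the lower ones Acta2, Myh11, Tagln, Cnn1 and Actg2. Medians of 7 immune cell genes lay between 5.26 and 6.76 in PBS and between 4.33 and 7.53 in MBELN, and those of 4 genes of Schwann cells and enteric glia between 7.73 and 7.80 in PBS and between 3.77 and 6.23 in MBELN. In bulk RNA, fewer cells of a type and less RNA per cell cannot be told apart.

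**Figure D1:**
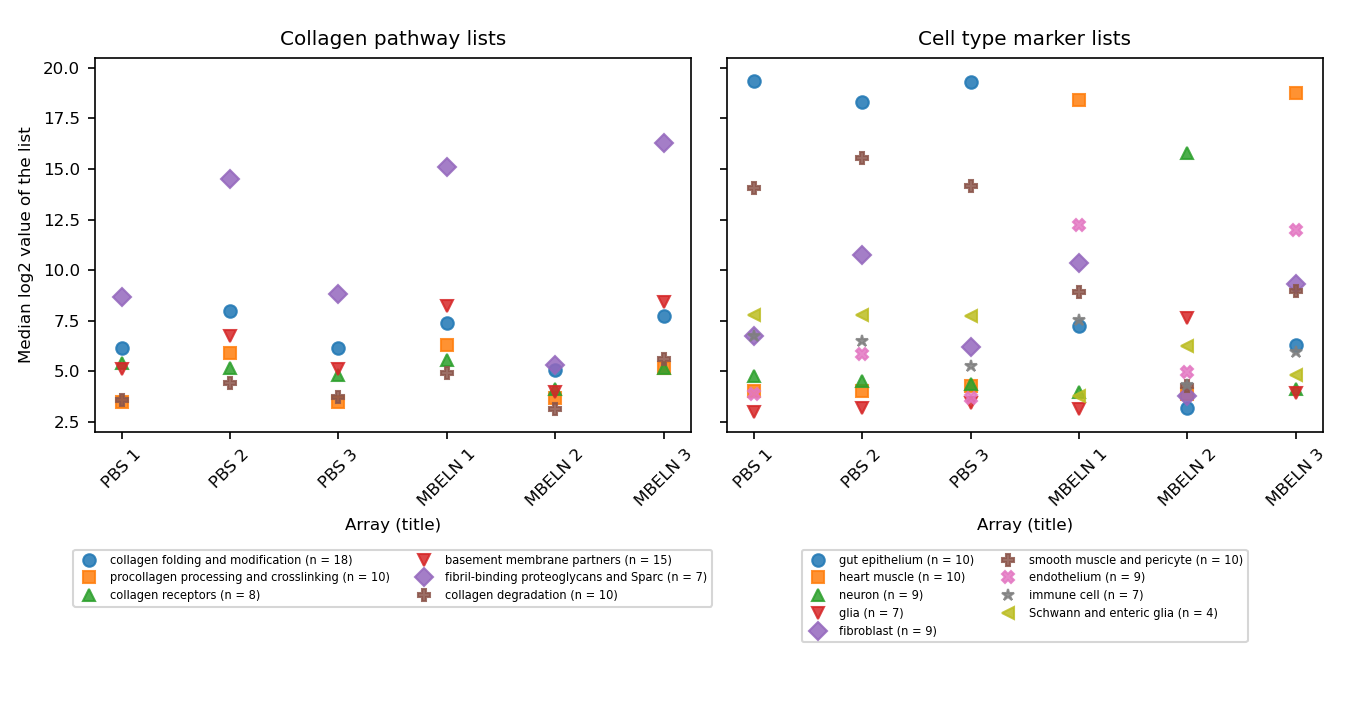
Median log2 value (y axis) of each gene list in each of the 6 arrays (x axis), with the 6 collagen pathway lists on the left and the 9 cell type marker lists on the right; n is the number of measured genes. Fibroblast medians are high in PBS 2, MBELN 1 and MBELN 3, and endothelial medians in MBELN 1 and MBELN 3 alone.

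The promoters of 3 chains are shown because 2 of them, Col1a2 and Col3a1, were high and low in the same arrays, while Col15a1 differed from both in PBS 2. Each line gives the 250 bases before the gene's first base, 5′ to 3′ on the plus strand, from RefSeq (GRCm38.p6). The windows are chr6:4505368-4505617 for Col1a2, chr1:45311288-45311537 for Col3a1 and chr4:47207762-47208011 for Col15a1. Capitals mark CCAAT or its reverse complement ATTGG, and TATAAA or its reverse complement TTTATA.
Col1a2: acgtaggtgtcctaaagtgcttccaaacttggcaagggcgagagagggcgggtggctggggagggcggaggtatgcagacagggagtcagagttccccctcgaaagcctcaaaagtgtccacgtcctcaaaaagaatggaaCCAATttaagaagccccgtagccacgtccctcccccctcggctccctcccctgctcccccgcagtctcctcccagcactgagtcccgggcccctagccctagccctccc
Col3a1: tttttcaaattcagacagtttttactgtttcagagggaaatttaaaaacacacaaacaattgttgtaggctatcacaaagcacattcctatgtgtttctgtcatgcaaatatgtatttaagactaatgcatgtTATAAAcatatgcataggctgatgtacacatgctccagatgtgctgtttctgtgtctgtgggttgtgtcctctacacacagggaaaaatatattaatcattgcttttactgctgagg
Col15a1: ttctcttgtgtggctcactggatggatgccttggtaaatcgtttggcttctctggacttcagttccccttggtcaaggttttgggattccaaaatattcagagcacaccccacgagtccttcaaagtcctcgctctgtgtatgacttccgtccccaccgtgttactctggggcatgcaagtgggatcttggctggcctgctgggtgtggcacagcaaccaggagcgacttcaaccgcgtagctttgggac
The CCAAT of Col1a2 begins 109 bases and the TATAAA of Col3a1 117 bases before the annotated start, and neither motif was found in the Col15a1 window. Promoter windows were found for 34 of the 42 members, 37 windows in all. CCAAT on either strand was in 12 of these 37 windows and in 33.8% of all 32851 windows of the same length, and TATAAA in 5 of the 37 and in 12.4% of all windows. A window counts once however many matches it holds, overlapping or not. A match is a description of the letters and not a binding site.

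To judge which probe sets were dim, each array was given a level from 1412 probe sets of olfactory and vomeronasal receptors, genes little used outside sensory tissue. The level is the 95th percentile of their values. This receptor level lay between 3.99 in PBS 3 and 4.44 in MBELN 3. Of the 42 collagen chains, 6 were above it in all 6 arrays, 18 in some arrays and 18 in none. Among all 22206 transcript probe sets, 37.4% were above it in all 6 arrays and 28.8% in none, against 14.3% and 42.9% of the members. The 6 chains above it in every array were Col1a1, Col4a1, Col4a2, Col6a1, Col6a2 and Col8a2. In PBS 1, 2 and 3, 13, 17 and 17 members exceeded the level. In MBELN 1, 2 and 3, 17, 11 and 16 did so. MBELN 2, the array with neuronal markers, thus had the fewest.

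Single arrays stood apart from the others of their label across the members. PBS 2 read above both other PBS arrays in 30 of 42 members (71.4%), against 42% of all transcript probe sets. PBS 3 read below both others in 24 members (57.1%), against 33.4% of all. MBELN 2 read below both other MBELN arrays in 29 members (69%), against 46.2% of all. MBELN 2 was the lowest of the 6 arrays for 17 members (40.5%), against 27.3% of all probe sets, and MBELN 3 the highest for 13 (31.0%), against 19.5%. In MBELN 2, 18 members (42.9%) lay over 1 log2 unit below the mean of MBELN 1 and MBELN 3, as did 22.2% of all probe sets. These counts include chains below the receptor level, whose order between arrays is no measure of level. Among the 24 members above it in at least 1 array, PBS 2 read above both other PBS arrays in 17 (70.8%, beside 40.2% of such probe sets). MBELN 2 read below both other MBELN arrays in 19 of the 24 (79.2%, beside 45% of such probe sets). It was the lowest of the 6 arrays in 12 (50%, beside 28.3%). A chain could enter these 24 through the array in which it was high, as Col5a3, Col11a2 and Col8a1 did through MBELN 1 alone. That filter favours low readings in the remaining arrays, so these counts are a description and no separate support.

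**Figure D2:**
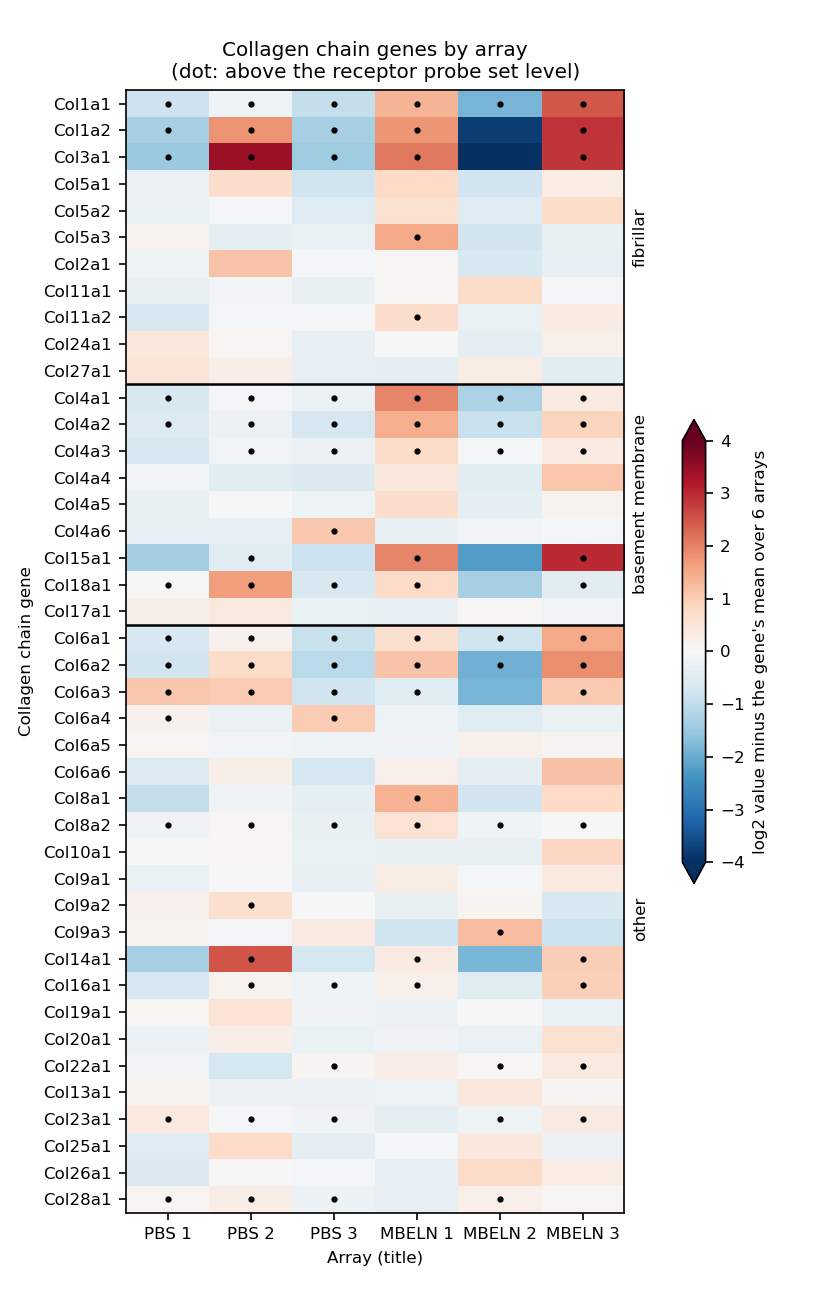
Log2 value minus the gene's own mean over the 6 arrays (colour; deviations beyond 4 units share the end colours) for all 42 collagen chain genes (rows, by class) in each array (columns). Black dots mark the values above the receptor level; Col1a2 and Col3a1 lie far below their means in MBELN 2, and Col3a1 far above its mean in PBS 2.

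The design sets gavaged mice against controls, which asks how the treatment relates to transcript levels. Over all 6 arrays, no collagen chain passed an adjusted p of 0.05. With limma and Benjamini-Hochberg adjustment over all 22206 transcript probe sets, 0 of 42 chains were called, beside 5.18% of all probe sets. No chain had an unadjusted p under 0.05 either, beside 17.8% of all probe sets, and the smallest adjusted p was 0.379, for Col4a3. The median difference, MBELN minus PBS, was 0.24 log2 units over the 42 members and 0.09 over all probe sets, with 27 of 42 members and 55.6% of all probe sets above 0. The groups did not overlap in 2 members (4.76%), beside 25.3% of all probe sets. Those members were Col4a3, and Col11a1, a cartilage fibril chain that was below the receptor level in all 6 arrays and is named after its values were seen. The standard error of a member's difference ran from 0.256 to 2.64, with the largest for Col3a1, and the difference for Col3a1 is therefore the least precise.

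The same model without MBELN 2 called 4 chains, all higher in MBELN (9.52%, beside 16.8% of all probe sets, or 9.51% in that direction). They were Col1a1, Col4a2, Col15a1 and Col8a1, and 20 members had groups that did not overlap, beside 45.9% of all probe sets. The same model without both PBS 2 and MBELN 2 leaves PBS 1 and PBS 3 against the heart-marked MBELN 1 and MBELN 3. It called 11 chains (26.2%), beside 30.5% of all probe sets. Mean log2 values of the hybridisation controls were 8.98 and 8.43 in these PBS arrays and 10.08 and 10.09 in these MBELN arrays. They were 9.79 in PBS 2 and 8.63 in MBELN 2. Label, tissue content and control level thus cannot be told apart in this comparison. Of the 11, 10 were higher in MBELN and 1 was lower, where 15.1% and 15.4% of all probe sets were called. The share in both directions together is thus below the background, and the share called higher, 23.8%, is above that of all probe sets. PBS 2 read above both other PBS arrays in 30 of 42 members, and MBELN 2 below both other MBELN arrays in 29. In such members leaving these arrays out raises the difference. The direction of these calls thus follows in part from the choice of arrays and is no separate support. In that comparison 29 members did not overlap (69%), beside 63.3% of all probe sets. The other single arrays left out in turn gave 0 calls among the members each.

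**Figure D3:**
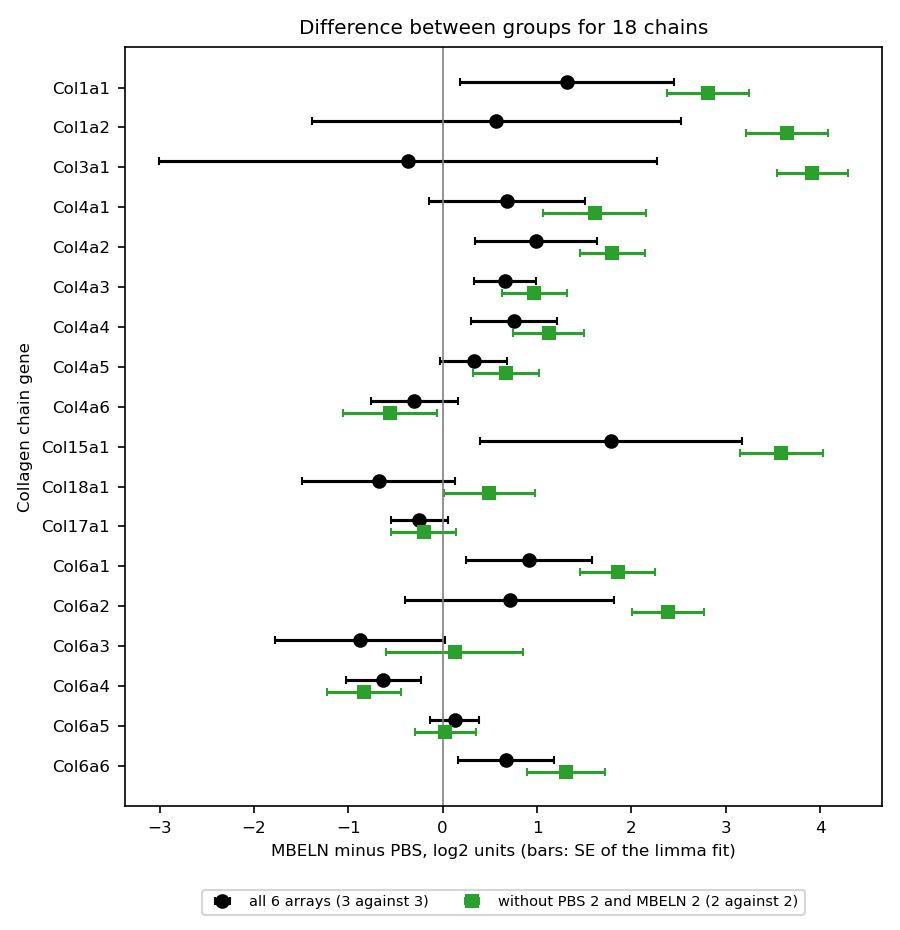
Difference MBELN minus PBS in log2 units (x axis, points; bars are the standard error of the limma fit) for the 18 chains of types I, III, IV, VI, XV, XVII and XVIII (y axis). Black circles use all 6 arrays and green squares leave out PBS 2 and MBELN 2; Col3a1 moves from -0.37 to 3.92 and Col1a1 from 1.32 to 2.81.

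Col1a1 and Col1a2 encode the chains of type I collagen, the main fibre protein of connective tissue. Values below run from array 1 to array 3 of each label. Col1a1 read 5.92, 6.58 and 5.81 in PBS and 8.12, 4.92 and 9.23 in MBELN. Its MBELN values lay on both sides of PBS, with MBELN 2 the lowest of the 6 arrays. The difference was 1.32 ± 1.13 (log2, SE, n = 3; limma, adjusted p = 0.605), with a 95% interval from -1.49 to 4.13. Without MBELN 2, it was 2.57 ± 0.46 (n = 2 and 3; limma, adjusted p = 0.0180), and without PBS 2 as well, 2.81 ± 0.44 (n = 2; limma, adjusted p = 0.00266).

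Its partner chain Col1a2 read 6.01, 9.15 and 6.02 in PBS and 9.09, 3.56 and 10.23 in MBELN. PBS 2 was as high as MBELN 1, and MBELN 2 lay below the receptor level. Over all arrays the groups differed by 0.57 ± 1.96 (SE, n = 3; limma, adjusted p = 0.909), and this difference was -0.73 without MBELN 3. Between PBS 1 and PBS 3 on one side and MBELN 1 and MBELN 3 on the other it was 3.65 ± 0.44 (n = 2; limma, adjusted p = 0.000794). The 2 chains of one molecule thus shared their low array, MBELN 2, while PBS 2 stood 3.13 above the mean of PBS 1 and PBS 3 for Col1a2 and 0.71 for Col1a1.

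Col3a1, the chain of the type III collagen that accompanies type I in distensible tissues, had the widest range of all members, 8.94 log2 units. It read 6.92, 11.84 and 6.97 in PBS and 10.49, 2.89 and 11.24 in MBELN. PBS 2 was the highest array and MBELN 2 the lowest, below the receptor level. The difference over all arrays was -0.37 ± 2.64 (SE, n = 3; limma, adjusted p = 0.962), with an interval from -6.92 to 6.18. With MBELN 2 set to its receptor level, the difference was 0.034, so its sign rests on a value below that level. Without PBS 2 and MBELN 2, MBELN was higher by 3.92 ± 0.37, or 15.1-fold (n = 2; limma, adjusted p = 0.000263). The 2 arrays left out held the highest PBS and the lowest MBELN value, so leaving them out raises the difference. This p is no separate support. Fibroblast medians were likewise high in PBS 2, MBELN 1 and MBELN 3 and lowest in MBELN 2, and their part in the result was not tested.

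The type V chains Col5a1, Col5a2 and Col5a3, which help to start fibrils, read between 2.21 and 5.38. Col5a1 and Col5a2 lay below the receptor level in every array, and Col5a3 exceeded it in MBELN 1 alone, at 5.38. Col5a2 passed the threshold without PBS 2 and MBELN 2 (difference 1.06 ± 0.32, SE, n = 2; limma, adjusted p = 0.0445), but no fold is given since both sides were below the receptor level, and with median centring or quantile normalization it was not called. The cartilage chains Col2a1 and Col11a1 and the chains Col24a1 and Col27a1 were below the level in all 6 arrays. Col11a2, also a cartilage chain, exceeded it in MBELN 1 alone, at 4.73.

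Col4a1 and Col4a2, the chains of the type IV network found in nearly all basement membranes, were above the receptor level in every array. Col4a1 read 5.32, 5.88 and 5.69 in PBS and 7.91, 4.70 and 6.32 in MBELN. Col4a2 read 5.68, 5.98 and 5.55 in PBS and 7.70, 5.36 and 7.13 in MBELN. Both were highest in MBELN 1 and lowest in MBELN 2, and the 3 PBS arrays lay closer together than the 3 MBELN arrays for each.

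The Col4a2 difference was 0.99 ± 0.65 over all arrays (SE, n = 3; limma, adjusted p = 0.504), 1.68 ± 0.32 without MBELN 2 (adjusted p = 0.0227) and 1.80 ± 0.35 without PBS 2 as well (n = 2; limma, adjusted p = 0.00740). For Col4a1 it was 0.68 ± 0.82 over all arrays (limma, adjusted p = 0.713), -0.12 without MBELN 1, and 1.61 ± 0.54 without PBS 2 and MBELN 2 (limma, adjusted p = 0.0669). In PBS 2, where Col3a1 stood 4.89 above the mean of PBS 1 and PBS 3, Col4a1 and Col4a2 stood 0.38 and 0.37 above it. Endothelial medians were 12.22 and 11.96 in MBELN 1 and MBELN 3, and 5.84 in PBS 2, and their part in the result was not tested.

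The other type IV chains belong to specialised basement membranes such as that of the kidney filter. Col4a3 read 4.0, 4.54 and 4.39 in PBS and 5.36, 4.57 and 4.97 in MBELN. All 3 MBELN values exceeded the PBS values, the nearest pair being MBELN 2 and PBS 2, at 4.573 and 4.537. PBS 1 lay below its receptor level of 4.19, and the other values were not far above theirs. The difference was 0.66 ± 0.33 (SE, n = 3; limma, adjusted p = 0.379), and no single array left out brought it past the threshold. Its partners Col4a4 and Col4a5 were below the receptor level in all 6 arrays. Col4a6 exceeded it in PBS 3 alone, at 4.25.

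Col15a1 and Col18a1 encode the multiplexins, basement membrane collagens that carry sugar side chains, and the end piece of Col18a1 gives endostatin. Col15a1 is found around capillaries and muscle cells. It read 3.42, 4.40 and 3.96 in PBS and 6.77, 2.57 and 7.80 in MBELN. MBELN 1 and MBELN 3 were above every PBS array and MBELN 2 was below every one. MBELN 2, PBS 1 and PBS 3 all lay below the receptor level, so their order is no measure of level. The difference was 1.78 ± 1.38 over all arrays (SE, n = 3; limma, adjusted p = 0.571) and 3.35 ± 0.47 without MBELN 2 (limma, adjusted p = 0.00754). Without PBS 2 as well it was 3.59 ± 0.44 (n = 2; limma, adjusted p = 0.000892). PBS 1 and PBS 3 were below the receptor level, so MBELN 1 and MBELN 3 were at least 9.15-fold higher, from their mean to the mean of the levels in PBS 1 and PBS 3.

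Col18a1 ran differently from Col15a1. It read 5.17, 6.88 and 4.55 in PBS and 5.94, 3.85 and 4.77 in MBELN. PBS 2 was the highest array, and MBELN 2 lay below the receptor level. The groups differed by -0.68 ± 0.81 (SE, n = 3; limma, adjusted p = 0.709), and by 0.50 ± 0.48 without PBS 2 and MBELN 2 (n = 2; limma, adjusted p = 0.521). Col17a1, the transmembrane collagen of hemidesmosomes that anchors epithelium to its basement membrane, read between 2.44 and 3.18 and was below the receptor level in all 6 arrays, the PBS arrays with gut epithelial markers included.

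**Figure D4:**
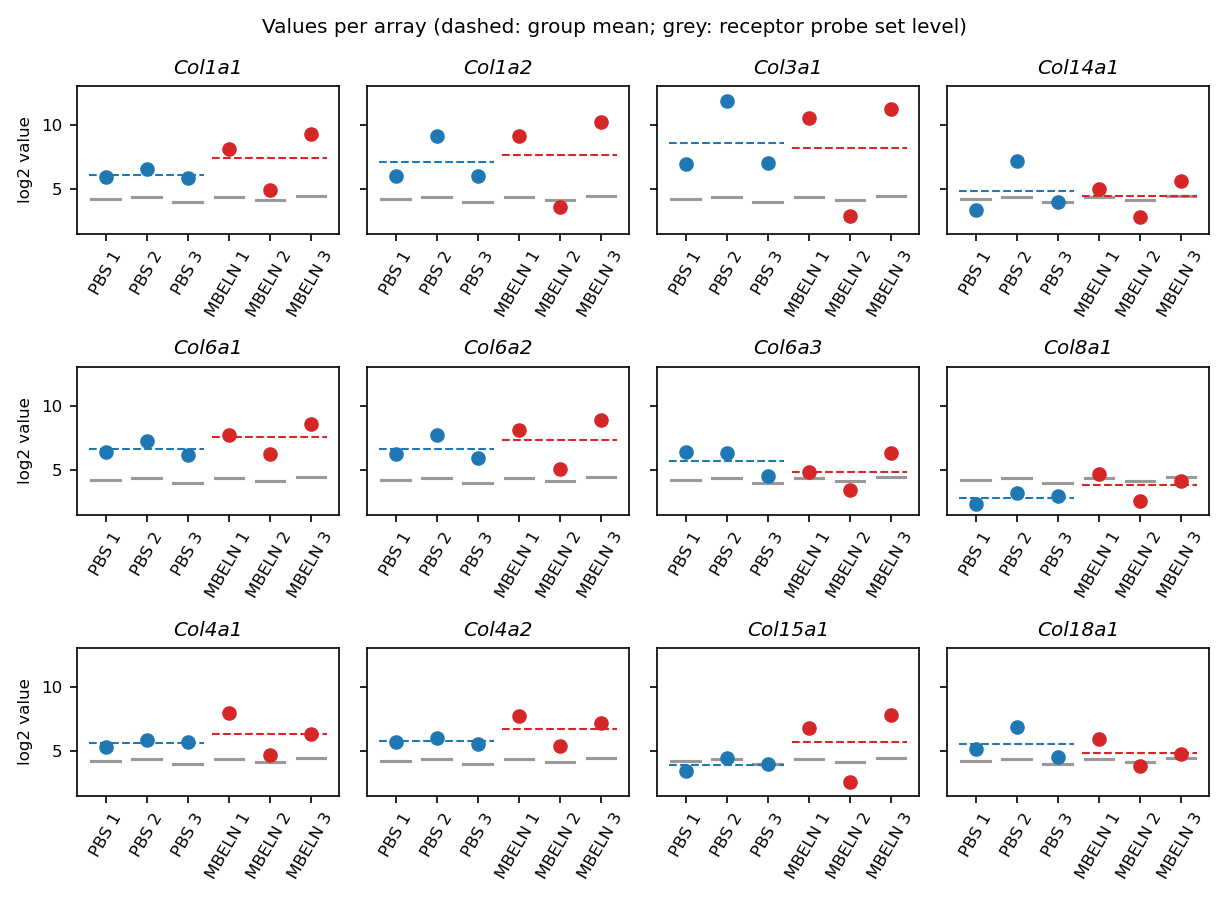
Log2 value in each array (points; blue PBS, red MBELN), group mean (dashed line) and receptor level of each array (grey bar) for 12 collagen chains. MBELN 2 is the lowest of the 3 MBELN arrays in each panel, and PBS 2 stands far above PBS 1 and PBS 3 for Col1a2, Col3a1 and Col14a1 but not for Col4a1 and Col4a2.

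Type VI filaments are built from Col6a1, Col6a2 and 1 longer chain, commonly Col6a3. Col6a1 read 6.41, 7.22 and 6.19 in PBS and 7.72, 6.25 and 8.58 in MBELN. Col6a2 read 6.26, 7.70 and 5.92 in PBS and 8.11, 5.05 and 8.85 in MBELN. For both chains MBELN 1 and MBELN 3 were above all PBS arrays and MBELN 2 was not. Over all arrays the differences were 0.91 ± 0.67 and 0.71 ± 1.11 (SE, n = 3; limma, adjusted p = 0.551 and 0.782). Without PBS 2 and MBELN 2 they were 1.85 ± 0.39 and 2.39 ± 0.38 (n = 2; limma, adjusted p = 0.0113 and 0.00304).

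Col6a3 did not follow its partners. It read 6.37, 6.31 and 4.48 in PBS and 4.79, 3.43 and 6.31 in MBELN, so PBS 1 and PBS 3 differed by more than the groups did. Its difference was -0.88 ± 0.90 (SE, n = 3; limma, adjusted p = 0.659), and 0.13 ± 0.73 without PBS 2 and MBELN 2 (adjusted p = 0.927). Of the chains that can take its place, Col6a5 and Col6a6 were below the receptor level in all 6 arrays, and Col6a4 exceeded it in PBS 1 and PBS 3, at 4.54 and 5.39. The Col6a4 difference was -0.63 ± 0.40 (limma, adjusted p = 0.491).

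Among the remaining chains, Col14a1, a fibril-associated chain that controls fibre width, read 3.33, 7.16 and 3.95 in PBS and 4.98, 2.81 and 5.63 in MBELN. Like Col3a1, it was highest in PBS 2 and read lowest in MBELN 2. Unlike for Col3a1, PBS 1 and PBS 3 lay below the receptor level as MBELN 2 did, so the order of these arrays is no measure of level. The difference over all arrays was -0.34 ± 1.25 (SE, n = 3; limma, adjusted p = 0.914), or -0.21 with values below the receptor level set to it. Without PBS 2 and MBELN 2 the difference was 1.66 ± 0.40 (n = 2; limma, adjusted p = 0.0182). MBELN 1 and MBELN 3 were at least 2.32-fold higher, since PBS 1 and PBS 3 were below the receptor level. Here too the 2 arrays left out held the highest PBS and the lowest MBELN value, so leaving them out raises the difference. Col14a1 is named after its values were seen, as are Col8a1 and Col9a3.

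Col8a1, a short chain of vessel walls, exceeded the receptor level in MBELN 1 alone, at 4.71. Its difference without MBELN 2 was 1.58 ± 0.39 (SE, n = 2 and 3; limma, adjusted p = 0.0475), and without PBS 2 as well 1.76 ± 0.39 (n = 2; limma, adjusted p = 0.0132). Most of these values lay below the receptor level, and with such values set to it the last difference was 0.48. Its partner Col8a2 read between 4.17 and 5.05 in all 6 arrays. Col9a3, a chain of cartilage fibre surfaces, was the single member called lower, by -1.05 ± 0.32 without PBS 2 and MBELN 2 (n = 2; limma, adjusted p = 0.0443). It was below the receptor level in the 4 arrays of that comparison, so no fold is given, and exceeded it in MBELN 2 alone, at 4.73. The partners Col9a1 and Col9a2 read between 3.02 and 4.47. Of the 10 chains not yet described, Col16a1, Col22a1, Col23a1 and Col28a1 exceeded the receptor level in some arrays, with values from 3.42 to 5.28. The other 6, Col10a1, Col13a1, Col19a1, Col20a1, Col25a1 and Col26a1, exceeded it in none.

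The other genes of the collagen pathway were taken from fixed lists. Of 18 measured genes for folding and modification of collagen chains, 0 were called with limma over all 6 arrays and 6 had an unadjusted p under 0.05. Of all probe sets, 5.18% were called and 17.8% had such a p. The list's median difference was 0.84 log2 units. With PBS 2 and MBELN 2 left out, 11 of the 18 were higher and 3 lower, beside 15.1% and 15.4% of all probe sets. Serpinh1, the collagen chaperone, read 7.40, 8.70 and 7.27 in PBS and 11.47, 4.38 and 12.50 in MBELN, and Crtap, part of the complex that modifies prolines, read 7.35, 9.63 and 7.28 in PBS and 11.82, 5.67 and 12.69 in MBELN. Both were highest in MBELN 1 and MBELN 3 and lowest in MBELN 2, as were Col1a1, Col4a2, Col6a2 and Col15a1. Of these, Col15a1 lay below the receptor level in MBELN 2, PBS 1 and PBS 3. The 3 genes called lower, P4hb, Mia3 and Creb3l1, ran the other way in MBELN 1 and MBELN 3. P4hb read 13.95, 11.59 and 14.89 in PBS and 11.28, 6.50 and 11.0 in MBELN, without overlap.

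The list's 4 smallest p-values over all arrays were those of Colgalt2, Creb3l1, P3h4 and P4ha2. Creb3l1, a transcription factor that drives collagen secretion genes, differed by -3.06 ± 0.86 (SE, n = 3; limma, adjusted p = 0.134), with 8.40, 8.62 and 9.09 in PBS and 6.67, 3.73 and 6.56 in MBELN. Its groups did not overlap, and it ran opposite to Serpinh1 in MBELN 1 and MBELN 3. Colgalt2, a collagen galactosyltransferase, differed by 1.96 ± 0.40 (limma, adjusted p = 0.0554), but lay below the receptor level in every array of PBS and in MBELN 2. P3h4, a partner in the complex that hydroxylates collagen lysines, and P4ha2, a subunit of prolyl 4-hydroxylase, differed by 1.95 ± 0.63 and 1.64 ± 0.56 (limma, adjusted p = 0.185 and 0.203).

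Of 10 measured genes for procollagen processing and crosslinking, 0 were called over all arrays and 0 had an unadjusted p under 0.05 (limma), beside 5.18% and 17.8% of all probe sets. The median difference was 0.62, and without PBS 2 and MBELN 2, 5 of the 10 were higher and 0 lower, beside 15.1% and 15.4% of all probe sets. Pcolce2, an enhancer of procollagen trimming, read 3.44, 10.41 and 3.58 in PBS and 10.33, 5.32 and 10.39 in MBELN, and Loxl1, a crosslinking oxidase, read 3.68, 7.26 and 4.10 in PBS and 9.65, 3.77 and 8.84 in MBELN. PBS 2 resembled MBELN 1 and MBELN 3 for Pcolce2, and lay between these and the other PBS arrays for Loxl1. Pcolce, the paralog of Pcolce2, was higher without PBS 2 and MBELN 2 (5.30 ± 0.59, n = 2; limma, adjusted p = 0.000559), and Adamts3, which trims procollagen ends, read 6.89 in MBELN 2 and between 2.48 and 3.31 elsewhere.

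Of 8 measured collagen receptors, 0 were called and 1 had an unadjusted p under 0.05 (limma), beside 5.18% and 17.8% of all probe sets. The 1 gene was Itga2, the integrin chain for type I collagen on epithelium and platelets, with 8.83, 3.77 and 9.53 in PBS and 2.95, 3.49 and 3.28 in MBELN. PBS 2 lay below the receptor level, as did all 3 MBELN arrays, and the difference was -4.14 ± 1.55 (SE, n = 3; limma, adjusted p = 0.248), or adjusted p = 0.00327 without PBS 2. The list's median difference was -0.33, and 3 of the 8 genes were higher and 1 lower without PBS 2 and MBELN 2, beside 15.1% and 15.4% of all probe sets. Lair1, Ddr1 and Mrc2 followed in order of p (limma, adjusted p = 0.441, 0.444 and 0.450).

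Basement membrane partners were the single pathway list with calls over all arrays, 0 higher and 2 lower of 15 measured genes, beside 5.18% of all probe sets called in either direction, at a median difference of 1.24. The 2 genes, Lama3 and Lamb3, encode chains of the laminin of epithelial hemidesmosomes. Lama3 read 12.86, 15.23 and 10.77 in PBS and 4.14, 3.97 and 3.85 in MBELN, all 3 below the receptor level, which makes it lower by at least 400.3-fold (limma, adjusted p = 0.0122). Lamb3 fell by 6.81 ± 0.75 (SE, n = 3; limma, adjusted p = 0.00869) from 10.43, 11.88 and 9.77 to 4.86, 2.84 and 3.96. MBELN 2 and MBELN 3 lay below the receptor level, and with that level in their place the difference was -6.23.

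The call of Lama3 ended without PBS 1 (limma, adjusted p = 0.0719), MBELN 1 (0.0614) or MBELN 3 (0.0660), and that of Lamb3 without PBS 1 (0.0541) or MBELN 3 (0.0520). Beside these falls, gut epithelium medians were 18.33 to 19.35 in PBS and 3.19 to 7.26 in MBELN, and their part in the result was not tested. Pxdn, the peroxidase that crosslinks type IV collagen, read 5.73, 6.73 and 6.75 in PBS and 8.21, 8.07 and 8.49 in MBELN, a difference of 1.85 ± 0.38 (limma, adjusted p = 0.0578). MBELN 2 was high for Pxdn, unlike for Col4a1 and Col4a2. Lama4, a laminin chain of vessels, differed by 1.93 ± 1.09 (limma, adjusted p = 0.437), and without PBS 2 and MBELN 2 the list had 9 genes higher and 3 lower, beside 15.1% and 15.4% of all probe sets.

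All 7 fibril-binding genes were measured, 2 of which, Dcn and Lum, also stand in the fibroblast list. Over all 6 arrays 0 were called and 1, Fmod, had an unadjusted p under 0.05 (limma, adjusted p = 0.252), at a median difference of 1.58. Of all probe sets, 5.18% were called and 17.8% had such an unadjusted p. All 7 fibril-binding genes were higher when PBS 2 and MBELN 2 were left out, beside 15.1% of all probe sets. Bgn, a small proteoglycan of fibres, read 7.18, 10.77 and 6.11 in PBS and 14.24, 4.42 and 14.36 in MBELN. Sparc, which binds collagen outside cells, read 10.52, 15.27 and 10.71 in PBS and 17.07, 13.69 and 16.97 in MBELN, so MBELN 2 was above PBS 1 and PBS 3 for Sparc and below them for Bgn, Col1a1 and Col3a1. Prelp, a proteoglycan that ties fibres to basement membranes, differed by 1.23 ± 2.0 (limma, adjusted p = 0.791).

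Of 10 genes for collagen breakdown and its inhibitors, 0 were called and 0 had an unadjusted p under 0.05 (limma), beside 5.18% and 17.8% of all probe sets. The median difference was 0.53. Without PBS 2 and MBELN 2, 6 of the 10 were higher and 0 lower, beside 15.1% and 15.4% of all probe sets. Timp1, Mmp9, Timp2 and Timp3 had the smallest p-values (limma, adjusted p = 0.308, 0.458, 0.471 and 0.633). Mmp9, 1 of the 6 called higher, lay below the receptor level in all 6 arrays, so its differences are no measure of level. Timp3, an inhibitor bound to the matrix, read 5.53, 10.41 and 6.32 in PBS and 11.32, 5.80 and 11.71 in MBELN. It was high in PBS 2, MBELN 1 and MBELN 3, the arrays in which Col1a2 and Col3a1 were high.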

How the data were processed

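The 6 single-colour arrays were hybridised with biotinylated cRNA from 90 ng of total RNA, per the labels' protocols. The labels also name an Ion AmpliSeq assay, which the sources used here do not resolve. The deposited table holds a single value for every probe set of every array, taken to be log2 from the range (lowest 1.453, highest 19.93). The submitters' processing notes name Transcriptome Analysis Console 4.0. Background correction, normalization and build were not given in the labels used here. Of 28846 probe sets, 6640 array controls were left out. Members were matched by annotated symbol, and all 42 symbols agreed through Entrez identifiers with a RefSeq gene table of GRCm38.p6.

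Groups came from the sample titles. MBELN and PBS were compared by two-sided moderated tests of limma 3.58.1 (lmFit, eBayes; R 4.3.3) with no covariate, adjusted by Benjamini-Hochberg across 22206 probe sets. The fit had 4 residual and 1.656 prior degrees of freedom and was run on simulated data. Those had independent normal noise of equal spread in both groups, so they do not show how the fit handles single outlying arrays such as MBELN 2. Fewer arrays per group leave the spread to be estimated from 3 or 2 residual degrees of freedom. Named by rule were chains of types I, III, IV, VI, VII, XV, XVII and XVIII, and members past the threshold over all arrays. No gene of type VII matched the member rule. Members without overlap between groups were named by rule where the mean of at least 1 group was above the receptor level. Up to 4 genes of each pathway list with the smallest p were named by rule, and other pathway genes after their values were seen. The members and lists were chosen with earlier results of these data known. No p is given over a list. Alternatives covered normalization, a filter on dim probe sets, the variance model, array weights, blocks, thresholds and arrays left out. The number of arrays limits the precision. Figures were drawn with matplotlib 3.10.9.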

Additional observations from a re-analysis of the deposited data

How the results depend on the processing

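The count of called transcript probe sets, 1150, was 5757 with array weights, 407 and 1772 at thresholds of 0.01 and 0.1, and 377 to 3738 when 1 array was left out. Without PBS 2 and MBELN 2 it was 6769, or 6618 with quantile normalization and 6725 with median centring, both added after seeing the data. Called collagen chains, 0 in the fit over all arrays, were 8 of 42 with array weights, beside 5757 of 22206 probe sets. Those weights were 0.144 for MBELN 2 and 0.519 for PBS 2. With 1 array left out, 0 to 4 chains were called, the 4 being 9.52%, beside 16.8% of all probe sets. Without PBS 2 and MBELN 2 it was 11 chains (26.2%, beside 30.5%), or 10 with either scaling. Chains without overlap, 2 over all arrays (4.76%, beside 25.3% of all probe sets), were 4 to 20 when 1 array was left out. The 20 came without MBELN 2 (47.6%, beside 45.9% of all probe sets). Without PBS 2 and MBELN 2 they were 29 (69%, beside 63.3%). Fewer values are compared in these settings. The member shares without overlap lay near those of all probe sets without MBELN 2 and without both arrays. Leaving out any other single array gave 4 to 7 of 42 chains. The share of all probe sets was not computed there, but it cannot fall below 25.3% when an array is removed. The other alternatives left 0 chains called. The replicate block gave 456 probe sets and 0 chains. With it, the adjusted p was 0.0529 for Lama3 and 0.0684 for Lamb3, so neither was called. Deviations of same-numbered arrays correlated at -0.0315, -0.0718 and -0.0557 across probe sets, no array correlated best with its own number, and the numbers were not taken as pairs.

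Directions turned for 8 of the 18 chains named by type. Without 1 array, the difference ran from -0.73 to 2.61 for Col1a2, -1.89 to 2.29 for Col3a1, -0.12 to 1.48 for Col4a1, -0.54 to 0.17 for Col4a6 and -0.048 to 1.85 for Col6a2. Without PBS 2 and MBELN 2, on deposited, quantile-normalized and median-centred values, it was 3.92, 4.03 and 3.87 for Col3a1, 0.50, 0.52 and 0.45 for Col18a1 and 0.13, 0.19 and 0.084 for Col6a3, and for Col6a5 it turned to -0.082 and -0.016 under the 2 scalings. With array weights it was 3.07 for Col3a1 and 0.22 for Col18a1. With high or low hybridisation controls as the block, it was -0.97 for Col1a2 and -0.13 for Col6a2. The high arrays were PBS 2, MBELN 1 and MBELN 3. The cause of these turns was not tested. Chains below the receptor level have no usable fold; this holds for 18 members in every array.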
